A study of Mus musculus with 21 samples.

Results

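Integrin subunits and the linkers that join them to actin were examined in mouse glomeruli during antibody-induced nephritis, with and without Epac1 in podocytes. The set was chosen by name and holds 10 of the 35598 genes counted: the alpha subunits Itga1, Itga3, Itga5 and Itgav, the beta subunits Itgb1, Itgb3 and Itgb5, and the linkers Tln1, Ilk and Vcl. Each was found by its Ensembl identifier, and all 10 passed the filter on low counts that left 13898 genes for testing.

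The libraries came from 21 female mice, 3 months old, 1 library per mouse. All animals carried floxed alleles of Epac1, the protein encoded by Rapgef3. Mice of the genotype Epac1fl/fl without Cre are called flox, and littermates with a Cre recombinase driven in podocytes are called cKO. Decomplemented nephrotoxic serum, which provokes a passive glomerulonephritis, was injected into a vein on 2 consecutive days, and control mice received PBS. Kidneys were taken at day 4 (early stage) or day 11 (established stage), so that the flox groups hold 3 libraries under PBS, 3 at day 4 and 4 at day 11, and the cKO groups 3, 4 and 4 in the same order. The labels of the PBS libraries give no day. Glomeruli were cut from frozen sections by laser microdissection and profiled with a kit that reads the 3′ end of polyadenylated transcripts. Cre removes the gene in podocytes only, whereas the glomeruli also hold endothelial, mesangial and blood cells. In such bulk samples fewer cells of a type and less RNA per cell cannot be told apart.

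Integrins are heterodimers of an alpha and a beta subunit that hold cells to the extracellular matrix. Epac1 is a cAMP-activated exchange factor for the small GTPase Rap1, and active Rap1 brings talin to the tails of beta subunits, which switches the integrin to its high-affinity shape. That switch occurs in the protein, so the RNA levels given here measure the supply of the components and not their activity. In podocytes the laminin receptor alpha3 beta1 anchors the foot processes to the glomerular basement membrane.

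Between 4550550 and 24295712 reads were counted per library (median 19470098), and 7871 to 13006 genes were detected. The fewest genes were detected in cKO day 4 replicate 3, and the fewest reads were counted in cKO day 11 replicate 3. All 14 podocyte markers and all 12 endothelial markers listed had reads in every library, as did at least 10 of 11 mesangial and smooth muscle markers. The summed level of the proximal tubule markers ran from 580 to 6844 CPM (read counts scaled to library size), with medians of 3258 under PBS, 4375 at day 4 and 1912 at day 11. The deleted gene, Rapgef3, averaged 270.2 ± 60.5 CPM (SD, n = 3) in flox PBS and 121 ± 50.2 CPM (SD, n = 3) in cKO PBS glomeruli. At day 4 the means were 191 ± 58.0 (SD, n = 3) and 119.9 ± 38.8 CPM (SD, n = 4), and at day 11 they were 204.5 ± 100.7 and 176.9 ± 28.6 CPM (SD, n = 4 each). Over all stages its log2 difference, cKO minus flox, was -0.68 ± 0.25 (SE, adjusted p = 0.55, edgeR). It did not pass the test, its 3′ tags may lie outside the deleted part, and cells other than podocytes keep the gene.

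No member passed the test in any of the 13 comparisons made, each fitted with edgeR's quasi-likelihood test on all 13898 genes and with a Benjamini-Hochberg adjusted p under 0.05 as the threshold. The test called few genes of any kind. The share of all genes called was 0.0216% at day 4 against PBS averaged over genotypes, 0.122% at day 11 against PBS averaged over genotypes, 0.0504% at day 11 in cKO and 0.0072% for the genotypes averaged over stages, and it was 0% in the other 9 comparisons. At an unadjusted p under 0.05 the members numbered between 0 and 3 of 10 in each comparison, while 5.86% to 9.28% of all genes had such a p. DESeq2 called Itgb1, Itgb3 or both in 10 comparisons, and limma's voom test called Itgb3 in 1. Over all genes DESeq2 called 1289 of 14677 at day 4, 1194 of 15015 at day 11 and 924 of 14263 between genotypes, each averaged. Its count over all genes was not taken in the other comparisons where it called a member. At day 11 on average voom called 90 of 13898. The values below are therefore given first as levels in each mouse.

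**Figure D1:**
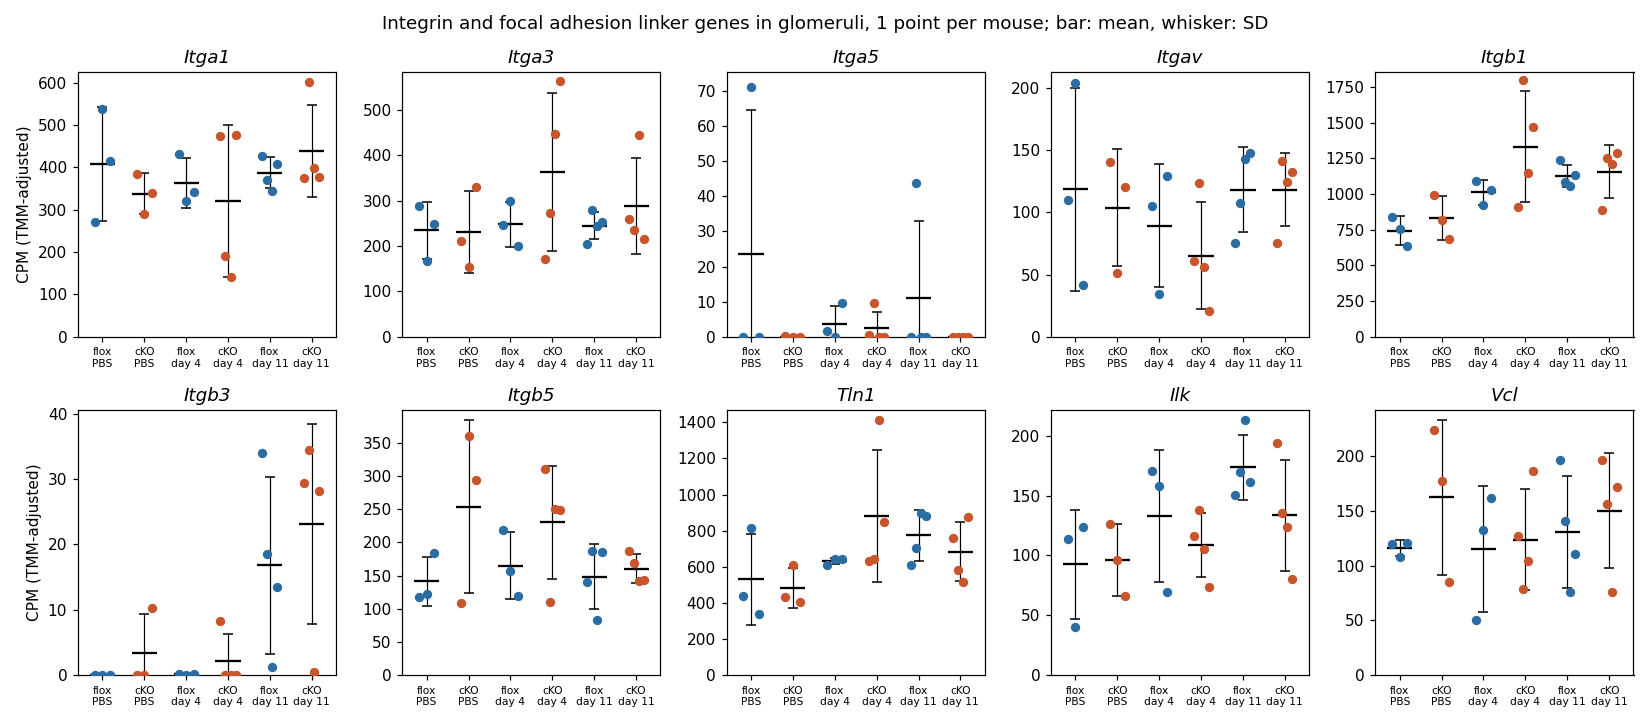
Level of each of the 10 genes in CPM (vertical axis, linear, starting at 0) in the 6 groups, with 1 point per mouse, flox in blue and cKO in orange, a bar at the group mean and a whisker of 1 SD. Itgb1 sits above the PBS range in 12 of 15 nephritic libraries, and Itgb3 has reads in all 8 libraries of day 11 but in 1 of 6 PBS libraries.

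The beta1 subunit pairs with many alpha subunits, among them all 4 described here, and Itgb1 was the member whose nephritic libraries stood most often above the PBS range. The 250 bases upstream of its start are shown because this is the gene with the steadiest difference. They are compared with those of Vcl, the linker whose averaged differences were among the smallest and whose window held the most motif matches of the 9 members with a RefSeq promoter entry (RefSeq, GRCm38.p6; Itgb1 at chr8:128685404-128685653 and Vcl at chr14:20929148-20929397, both on the plus strand). Capitals mark matches on either strand to the GC box (GGGCGG), the CCAAT box (CCAAT), the TEAD motif (GGAATG) and the CArG box, which serum response factor binds.
Itgb1: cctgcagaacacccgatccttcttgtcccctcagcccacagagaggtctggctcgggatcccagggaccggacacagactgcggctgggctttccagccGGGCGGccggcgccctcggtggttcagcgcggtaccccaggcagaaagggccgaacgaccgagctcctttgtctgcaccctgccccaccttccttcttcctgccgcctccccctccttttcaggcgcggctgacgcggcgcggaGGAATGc
Vcl: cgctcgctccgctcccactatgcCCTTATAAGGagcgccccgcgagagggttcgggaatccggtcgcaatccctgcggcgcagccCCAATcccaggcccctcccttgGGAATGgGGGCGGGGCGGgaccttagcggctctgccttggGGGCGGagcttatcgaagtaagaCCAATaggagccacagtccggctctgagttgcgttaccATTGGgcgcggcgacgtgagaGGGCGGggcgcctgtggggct
The Itgb1 window held 1 GC box and 1 TEAD match. The Vcl window held 4 GC boxes, of which a pair share a base, 3 CCAAT boxes, 1 TEAD match and 1 CArG box. Of 32851 promoter windows of this length, 32.742% held a GC box, 33.85% a CCAAT box, 12.642% a TEAD match and 1.467% a CArG box. Neither window held a match to TATAAA, found in 12.368% of windows, or to the AP-1 motif TGANTCA, found in 6.749%. A match describes the letters and is not evidence of binding.

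Under PBS, Itgb1 stood at 837, 758 and 635 CPM in flox and at 992, 817 and 685 CPM in cKO glomeruli. At day 4 it was 1091, 922 and 1026 CPM in flox and 909, 1799, 1150 and 1473 CPM in cKO mice. At day 11 it was 1238, 1082, 1058 and 1132 CPM in flox and 888, 1252, 1208 and 1285 CPM in cKO mice. In flox mice all 7 nephritic libraries lay above all 3 PBS libraries, and in cKO mice 6 of 8 did so. Over all genes, 6.81% lay wholly above PBS at day 4 in flox and 3.86% at day 11 in flox. Averaged over genotypes, Itgb1 was 1.48-fold of PBS at day 4 (95% interval 1.18 to 1.86), a log2 difference of 0.56 ± 0.16 (SE, adjusted p = 0.376). At day 11 the log2 difference was 0.54 ± 0.16 (SE, adjusted p = 0.308). The nephritis comparisons at both stages use the same 6 PBS libraries. DESeq2 placed both averaged differences under its threshold, with adjusted p of 0.0139 at day 4 and 0.0143 at day 11, so whether Itgb1 is called depends on the test. In these comparisons DESeq2 called 1289 of 14677 genes at day 4 and 1194 of 15015 at day 11. Day 11 and day 4 differed by -0.02 ± 0.15 (SE) in log2, with a 95% interval from -0.33 to 0.28. The macrophage and leukocyte markers had summed medians of 408 CPM under PBS, 698 at day 4 and 598 at day 11 with both genotypes pooled. By genotype, the mean sums in the same order were 558.7, 653.4 and 555.2 CPM in flox and 382.5, 679 and 835.9 CPM in cKO mice. The neutrophil markers had pooled medians of 33.25, 4.442 and 12.38 CPM, and the lymphocyte markers 5.893, 0.07687 and 0.0424 CPM. These medians were lower in nephritis, but the ranges of the stages overlapped. The highest neutrophil sums were 96.9, 73.02 and 78.2 CPM, and the highest lymphocyte sums 27.2, 56.81 and 13.16 CPM. By genotype, the mean lymphocyte sums were 9.067, 2.808 and 3.375 CPM in flox and 11.49, 16.12 and 2.119 CPM in cKO mice. The part of these cells in the Itgb1 values was not tested.

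The beta3 subunit joins Itgav in vascular and inflammatory cells and podocytes and Itga2b in platelets. Itgb3 had 0 reads in all 3 flox PBS libraries and was listed at 0, 0 and 10.3 CPM in cKO PBS. At day 4 it reached 0.16, 0 and 0.235 CPM in flox and 8.34, 0, 0 and 0 CPM in cKO mice. At day 11 it stood at 34.1, 18.5, 1.25 and 13.5 CPM in flox and 29.4, 34.5, 0.448 and 28.2 CPM in cKO mice. Reads were thus present in 1 of 6 PBS, 3 of 7 day 4 and 8 of 8 day 11 libraries, with 1 low library in each day 11 group. The day 11 mean in flox was at least 309-fold higher than the floor of 3 counts over the flox PBS group. In cKO mice the day 11 mean of 23.2 CPM was 6.74-fold the PBS mean of 3.43 CPM, which rests on a single library. The flox day 11 libraries did not overlap with PBS, as was true of 3.86% of all genes. Itgb3 passed the filter on low counts only through its day 11 libraries, so that share does not measure how unusual its separation is. For the same reason the edgeR and voom p-values below are not independent of where Itgb3 is high. The averaged comparison of day 11 with PBS had an adjusted p of 0.342 in edgeR, 0.0299 in voom and 6.76e-11 in DESeq2, and its fitted fold change depends on how the zeros are treated. Over all genes voom called 90 of 13898 in this comparison and DESeq2 1194 of 15015.

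**Figure D2:**
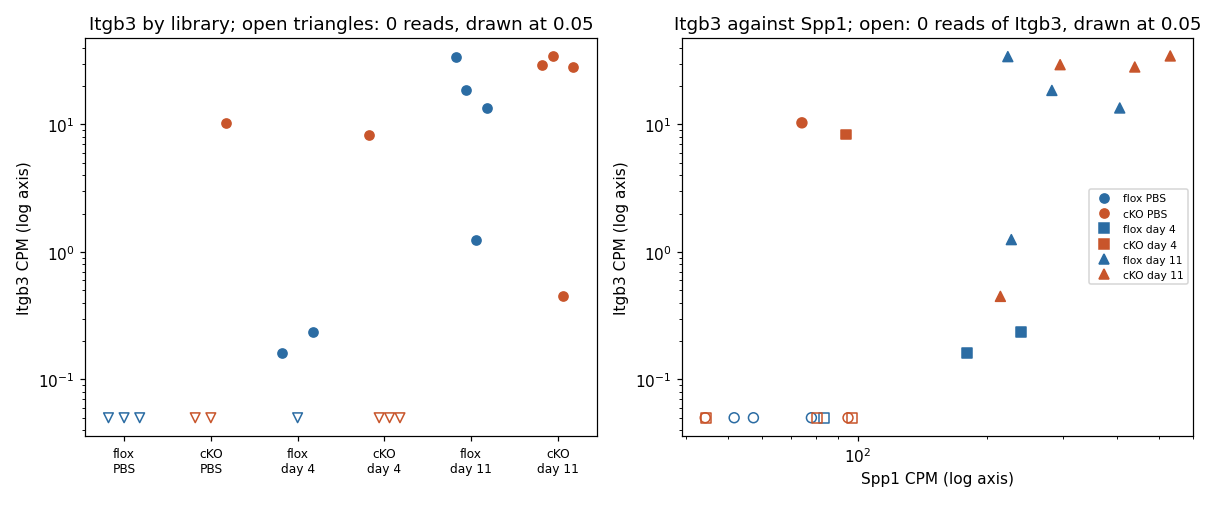
Itgb3 in CPM on a log axis by group (left) and against Spp1 in CPM on a log axis (right), with 1 symbol per mouse. Open symbols have 0 reads of Itgb3 and are drawn at 0.05. The 8 libraries of day 11 all carry Itgb3 reads and have 214 to 531 CPM of Spp1.

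Spp1, which encodes osteopontin, a secreted ligand of integrins, was the gene whose log2 level across the 21 libraries was most like that of Itgb3 (Pearson r = 0.745). This likeness was searched for among 3530 genes and includes the shared difference between stages, and within groups r was 0.43. Spp1 ranged from 44.2 to 94.9 CPM under PBS, from 44.4 to 239 CPM at day 4 and from 214 to 531 CPM at day 11. All 8 libraries of day 11 lay above all 6 PBS libraries, as was true of 0.194% of all genes. Because Spp1 was picked by its likeness to Itgb3 in the same libraries, that share does not measure how unusual its separation is. Itga2b, the platelet partner, had reads in 3 of 6 PBS, 1 of 7 day 4 and 5 of 8 day 11 libraries, with at most 25.04 CPM. The 7 platelet markers, Itga2b among them, summed to 3.31 to 73.7 CPM under PBS, 0 to 43.2 CPM at day 4 and 17.4 to 137 CPM at day 11, with reads in at most 4 of the 7 in any library. Across libraries Itgb3 and this sum had a Pearson r of 0.548 and a Spearman rho of 0.614. Among the marker lists the distal nephron sum had the Pearson r furthest from 0, at -0.588 (Spearman rho -0.556). The library with 73.7 CPM of platelet markers, flox PBS replicate 1, had 0 reads of Itgb3. The part of platelets in the Itgb3 values was not tested.

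The beta5 subunit binds vitronectin together with Itgav. Itgb5 had a median of 152.6 CPM under PBS, 219 CPM at day 4 and 156 CPM at day 11. The highest library of each stage reached 360, 311 and 188 CPM, and the stages overlapped. Its log2 difference from PBS was 0.04 ± 0.32 (SE) at day 4 and -0.30 ± 0.30 (SE) at day 11, averaged over genotypes. Neither passed the test, and at day 11 the 95% interval ran from -0.91 to 0.32.

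Among the alpha subunits, Itga3 is the partner of beta1 in the podocyte laminin receptor and Itga1 that in the collagen receptor of mesangial and endothelial cells. Itga3 ranged from 154 to 331 CPM under PBS, from 171 to 563 CPM at day 4 and from 206 to 446 CPM at day 11. Its highest values, 563 and 446 CPM, were both in cKO mice at day 4, and a further cKO library reached 446 CPM at day 11. The libraries at 446 CPM were the one with the fewest genes detected (day 4) and the one with the fewest reads (day 11). The averaged log2 differences from PBS were 0.37 ± 0.28 (SE, adjusted p = 0.846) at day 4 and 0.19 ± 0.27 (SE) at day 11. Itga1 ranged from 271 to 538 CPM under PBS, from 140 to 477 CPM at day 4 and from 345 to 603 CPM at day 11, and its averaged differences were -0.12 ± 0.25 and 0.15 ± 0.25 (SE). In cKO mice at day 4 Itga1 split into a pair of libraries at 473 and 477 CPM and a pair at 191 and 140 CPM. The low pair had 9032 and 7871 genes detected, the fewest of the 21 libraries, and the high pair 12167 and 10378.

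Itgav, the shared partner of the beta3 and beta5 subunits, ran from 41.7 to 203.7 CPM under PBS, from 20.3 to 129 CPM at day 4 and from 75.0 to 148 CPM at day 11. Its averaged log2 difference from PBS was -0.54 ± 0.46 (SE) at day 4 and 0.09 ± 0.44 (SE) at day 11, and neither passed the test. Itga5, the alpha subunit of the fibronectin receptor, was scattered. It had reads in 4 of 10 flox and 3 of 11 cKO libraries. Single libraries held most of them, with 71.1 CPM in flox PBS replicate 2 and 43.9 CPM in flox day 11 replicate 2, and all 4 cKO libraries of day 11 had 0 reads. A fitted fold change of Itga5 therefore describes single mice.

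Of the linkers, talin-1 (Tln1) binds the tails of beta subunits and is the step at which Rap1 acts on integrins. Tln1 stood at 438, 815 and 337 CPM in flox PBS and 433, 609 and 405 CPM in cKO PBS glomeruli. At day 4 it was 611, 642 and 643 CPM in flox and 634, 640, 1411 and 849 CPM in cKO mice. At day 11 it was 612, 703, 896 and 884 CPM in flox and 762, 582, 517 and 874 CPM in cKO mice. All 15 nephritic libraries lay above the PBS median and 5 lay above every PBS library, since flox PBS replicate 2 was high. In cKO mice the day 4 libraries lay wholly above PBS, as did 1.37% of all genes, and the highest of them, at 1411 CPM, was the library with the fewest genes detected. The averaged log2 difference from PBS was 0.56 ± 0.22 (SE, adjusted p = 0.394) at day 4 and 0.52 ± 0.21 (SE, adjusted p = 0.394) at day 11. Leaving out 1 library gave 0.40 (without the 1411 CPM library) to 0.79 (without flox PBS replicate 2) at day 4, and 0.40 (without flox PBS replicate 3) to 0.75 (without flox PBS replicate 2) at day 11.

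Integrin-linked kinase (Ilk) is a pseudokinase that ties beta1 to actin through PINCH and parvin. Ilk was 114, 40.5 and 124 CPM in flox PBS and 126, 95.9 and 65.8 CPM in cKO PBS glomeruli. At day 11 it was 151, 170, 213 and 162 CPM in flox and 194, 135, 123 and 80.6 CPM in cKO mice. The flox day 11 libraries lay wholly above flox PBS, as did 3.86% of all genes, and the cKO libraries overlapped with cKO PBS. The averaged log2 difference at day 11 was 0.69 ± 0.35 (SE, adjusted p = 0.574), and the difference of this change between genotypes was -0.43 ± 0.70 (SE, adjusted p = 1). Vinculin (Vcl), which binds stretched talin and adds a further link to actin, had medians of 120.4 CPM under PBS, 127 CPM at day 4 and 149 CPM at day 11, with the lowest libraries at 85.3, 50.5 and 75.6 CPM. Its averaged differences from PBS were -0.20 ± 0.36 and 0.03 ± 0.35 (SE). The 3′ ends of Ilk and Vcl overlap Taf10 and Ap3m1 on the opposite strand. Whether the counting used strand is not given in the sources used here, so reads of these pairs may be mixed.

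**Figure D3:**
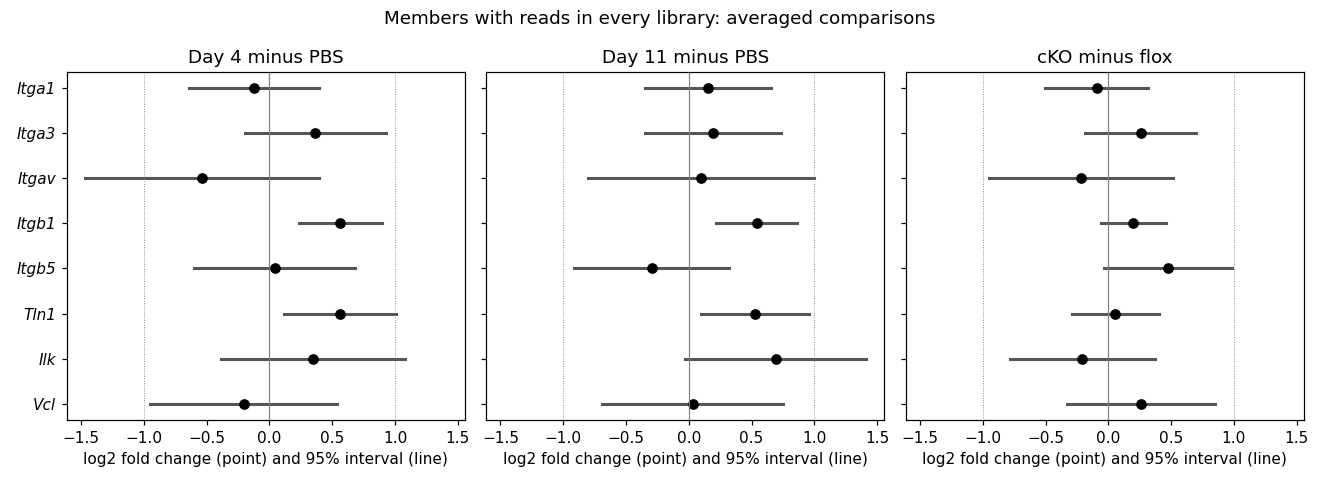
Log2 fold change (point) and its 95% interval (line) for the 8 genes with reads in every library, at day 4 against PBS, at day 11 against PBS and in cKO against flox, each averaged. Dotted lines mark a change of 2-fold either way. Itgb1 and Tln1 lie above 0 with their whole interval at both stages, before adjustment for the number of genes tested, and no gene does so in the genotype comparison.

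The comparison of genotypes asks whether loss of Epac1 in podocytes goes with a different supply of integrins and linkers. No member passed the test under PBS, at day 4, at day 11 or on average over stages. For each of the 8 members with reads in every library the 95% interval of the averaged difference, cKO minus flox, included 0 and lay within a 2-fold change in either direction. The differences ran from -0.21 (Itgav) to 0.48 (Itgb5), and the smallest adjusted p was 0.817. Itgb1 differed by 0.20 ± 0.13 (SE), with an interval from -0.06 to 0.46, and Tln1 by 0.06 ± 0.17 (SE), with an interval from -0.29 to 0.40. These intervals describe whole glomeruli, and podocytes were not measured alone. Under PBS and at single stages the intervals were wider, and between 2 and 5 of the 8 members had one within 2-fold.

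The members without reads in every library had the largest fitted genotype differences. Itgb3 had an averaged adjusted p of 0.596 and Itga5 one of 0.55. Itgb3 had reads in 6 of 10 flox and 6 of 11 cKO libraries. The interactions, which ask whether the change with nephritis differs by genotype, also called no member. For the 8 members with reads throughout, the interaction at day 4 ran from -0.37 to 0.62 in log2 and that at day 11 from -0.74 to 0.45, with all intervals including 0. Only 1 of the 8 at day 4 and 2 at day 11 had an interval within a 2-fold change, so the intervals of the rest do not exclude a difference of that size.

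As a group the members' averaged log2 differences had a median of 0.36 at day 4, with 7 of 10 above 0, beside a median of 0.01 and 50.5% above 0 over all genes. At day 11 the median was 0.17 with 8 of 10 above 0, beside 0.07 and 52.9% over all genes. For the genotypes the median was 0.13 with 6 of 10 above 0, beside 0.01 and 50.7%. The 3 beta subunits had a median of 0.56 at day 4 and 0.54 at day 11, the 3 linkers one of 0.35 at day 4 and 0.52 at day 11, and the 4 alpha subunits one of 0.12 at both stages. A median of 3 is the value of 1 gene. The beta median was that of Itgb1 at both stages, with Itgb5 at 0.04 and -0.30 and Itgb3 at a fitted 1.79 and 6.99. The linker median was that of Ilk at day 4 and Tln1 at day 11, with Vcl at -0.20 and 0.03.

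The list of 76 other adhesion genes, of which 72 were tested, held other integrin subunits, activators, inhibitors, scaffolds, actin linkers and tetraspanin partners. At day 11, averaged over genotypes, 2 of the 72 were called, both higher: Flna and Csrp1, while 0.122% of all genes were called. At day 11, 8 of the 72 had an unadjusted p under 0.05 in edgeR, beside 9.12% of all genes. Of the 72, 51 lay above 0 with a median of 0.39, beside 52.9% and a median of 0.07 over all genes. At day 4 none of the 72 was called by edgeR, and 16 had an unadjusted p under 0.05, beside 9.28% of all genes. DESeq2 called 10 of the 71 it tested there and 1289 of 14677 genes in all. Of the 72, 43 lay above 0 at day 4 with a median of 0.33, beside 50.5% and a median of 0.01 over all genes. In the averaged comparison of genotypes none was called by edgeR, and 5 had an unadjusted p under 0.05, a share near the 6.62% of all genes. DESeq2 called 1 there, Itgal, and 924 of 14263 genes in all.

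Filamin A (Flna) crosslinks actin and competes with talin for beta tails. Flna averaged 351 ± 115 CPM (SD, n = 6) under PBS, 678 ± 189 CPM (SD, n = 7) at day 4 and 810.1 ± 171 CPM (SD, n = 8) at day 11. All 8 libraries of day 11, from 554 to 1071 CPM, lay above the highest PBS library at 469 CPM. Of all genes, 0.194% lay wholly above PBS at day 11 with both genotypes pooled. Flna rose at day 11 by 1.22 ± 0.23 in log2 (SE, adjusted p = 0.009), and the difference at day 4 was 0.94 ± 0.23 (SE, adjusted p = 0.199) at day 4. Csrp1, a LIM protein of actin bundles in smooth muscle and mesangial cells, averaged 388 ± 87.4 CPM (SD, n = 6) under PBS and 797 ± 162 CPM (SD, n = 8) at day 11. Under PBS Csrp1 stood at 454, 474 and 471 CPM in flox and at 312.5, 283 and 335 CPM in cKO glomeruli. At day 11 the libraries had 614, 574, 757 and 799 CPM in flox and 720, 962, 1004 and 947 CPM in cKO mice. Csrp1 was higher at day 11 by 1.05 ± 0.18 on average (SE, adjusted p = 0.00432) and by 1.55 ± 0.26 in cKO mice (SE, adjusted p = 0.00609). The call in cKO mice was lost without cKO PBS replicate 1 or without cKO PBS replicate 2. The summed mesangial and smooth muscle markers had medians of 3440 CPM under PBS, 3884 at day 4 and 5097 at day 11, and their part in the Csrp1 and Flna values was not tested.

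**Figure D4:**
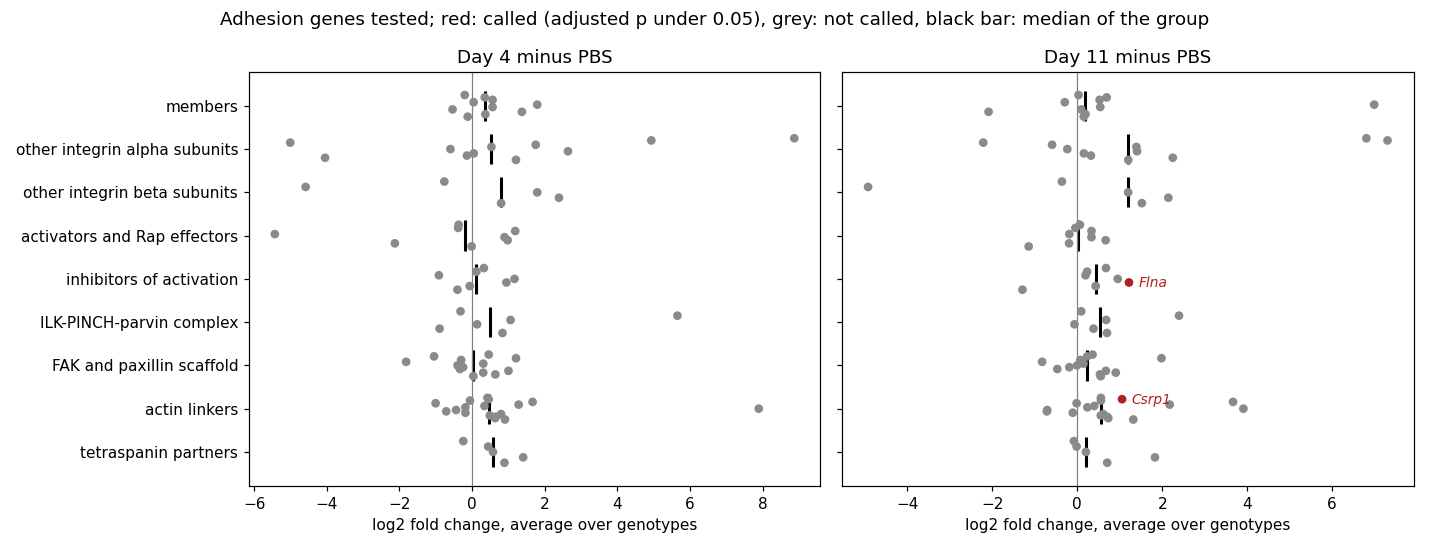
Log2 fold change against PBS at day 4 (left) and day 11 (right), averaged over genotypes, for the 10 members and 72 other adhesion genes, with 1 point per gene by list and a black bar at each list's median. Flna and Csrp1, in red, are the genes called, both at day 11, and all other points are grey.

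The next by p were the alpha-actinins, which crosslink actin at adhesions. Actn1 differed from PBS by 1.32 ± 0.30 (SE, adjusted p = 0.0679) and Actn4 by 0.73 ± 0.18 (SE, adjusted p = 0.116) at day 11. At day 4 Actn4 differed by 0.64 ± 0.18, Actn1 by 0.91 ± 0.30 and Itgax, a subunit of dendritic cells and macrophages, by a fitted 8.87 ± 3.14 (SE), each with an adjusted p of 0.376. Itgax had reads in 1 of 6 PBS, 2 of 7 day 4 and 4 of 8 day 11 libraries. Between day 11 and day 4 the smallest p belonged to Csrp1, at 0.60 ± 0.17 (SE, adjusted p = 0.382), followed by Apbb1ip, the Rap1 effector that recruits talin, Itga2b and Cd81. Between genotypes they belonged to Itgal, Itga10, Vasp at 0.71 ± 0.31 (SE, adjusted p = 0.678) and Itga8, the mesangial nephronectin receptor, at -0.67 ± 0.30 (SE, adjusted p = 0.697).

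The members did not share one pattern over the libraries. By log2 level over the 21 libraries, the genes most like each member were Btg1 for Itga1 (r = 0.84), Pea15a for Itga3 (r = 0.69), Naa38 for Itga5 (r = 0.63), Lbh for Itgav (r = 0.67) and Rps26 for Itgb1 (r = 0.78). They were Rpl7a for Itgb5 (r = 0.75), Dap for Tln1 (r = 0.77), 2210016L21Rik for Ilk (r = 0.74) and Pdgfrb for Vcl (r = 0.69). Pdgfrb encodes the receptor that marks mesangial cells and pericytes. No member was the nearest neighbour of another. Among member pairs, Itgav and Itgb5, partners in a vitronectin receptor, had the most negative Pearson r over all libraries, -0.54 (Spearman rho -0.58). Within groups their r was -0.50, and the most negative was -0.59, for Itgb1 and Itgb5. These values are the extremes of many pairs compared and share library depth and the difference between stages.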

How the data were processed

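The authors deposited 1 table per library of estimated counts for each gene, without normalization according to the column names, per the file headers. The tools named per the submitters' processing notes are DRAGEN, fastp, FastQC and Picard, with the mm10 build. Tool versions, strand, duplicate and molecular identifier handling and the annotation release were not given in the sources used here. Whole numbers (within 0.005) made up 95.2% of the values above 0, and 0 library pairs were identical. GENCODE symbols on GRCm38 were found for 35513 of 35598 identifiers (99.8%).

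After rounding, the estimated counts were fitted by robust quasi-likelihood in edgeR 4.0.16 (R 4.3.3), with filterByExpr at a minimum of 10 counts and TMM factors between 0.751 and 1.12. All 21 libraries entered 1 model of 6 group means with 15 residual degrees of freedom, and p-values were adjusted over all 13898 genes. The common biological coefficient of variation was 1.66. A standard error is the size of the log2 fold change over the root of F, and every SE and adjusted p is from this test unless another tool is named. CPM used TMM-adjusted library sizes, and log2 CPM for correlations a prior count of 2. Because 3′ tags are counted, levels are compared between libraries and not ranked between genes. The floor of 3 counts covers counting error only. Each p-value weighs a difference against the spread between libraries. With 1 library per mouse, the spread between mice and that between library preparations cannot be told apart.

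Alternatives were a proximal tubule covariate, a replicate block, other size factors and other filters, DESeq2 1.42.0, voom with quality weights in limma 3.58.1 and leaving out each library. Removing cKO day 4 replicate 3 together with cKO day 11 replicate 3 was added after seeing the data. The scripts were tested on simulated data. The members, the lists of adhesion and marker genes and the tests were chosen with earlier results of these data known. The rule for named genes took all 10 members, every other adhesion gene called, up to 4 of those with the smallest p in each averaged comparison, and for each member its most similar genes among those averaging at least 5 in log2 CPM. Promoter windows came from RefSeq (GRCm38.p6), with entries for 9 of 10 members. Plots used matplotlib 3.10.9 in Python 3.11.15.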

Additional observations from a re-analysis of the deposited data

Results flagged for a closer look

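Of 29 sets of member values in groups of 4 libraries, 4 held a library far from the others, where chance marks about 1 in 20 sets of normally distributed values. That rate does not apply to Itga5 and Itgb3, since a set with reads in a single library is always marked. Itga1 stood at 602.6 CPM in cKO day 11 replicate 2, where the nearest of the other 3 libraries had 398.5 CPM. Itga5 stood at 9.529 CPM in cKO day 4 replicate 2 beside 0.4194 CPM in the nearest library, and at 43.89 CPM in flox day 11 replicate 2 while the other 3 libraries had 0 reads. Itgb3 stood at 8.342 CPM in cKO day 4 replicate 1 while the other 3 libraries had 0 reads.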

How the results depend on the processing

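With edgeR no member was called under any other scaling, filter, covariate, sample choice or left-out library, so leaving out 1 library gave between 0 and 0 members called in every comparison. DESeq2, which gave no adjusted p for Itga5, called 1 member, Itgb3, at day 4 in flox, at day 11 in flox, at day 11 against day 4, in cKO against flox under PBS and on average, and in both interactions. It called 1 member, Itgb1, at day 4 in cKO, and 2 members, Itgb1 and Itgb3, at day 4 and at day 11 averaged over genotypes. Voom called 1 member, Itgb3, at day 11 averaged over genotypes. Under PBS a single library, cKO replicate 3, had Itgb3 reads (230), and flox mice at day 4 had 8 in all. DESeq2 calls over all genes were counted only in the comparisons named next, so the other member calls stand without such a share. Over all genes DESeq2 called 1289, 1194, 924 and 670 genes at day 4 on average, at day 11 on average, between genotypes on average and at day 11 in cKO, where edgeR called 3, 17, 1 and 7. Leaving out 1 library moved these counts to 2 to 16 at day 4 (16 without cKO day 4 replicate 3, 12 without cKO day 4 replicate 1, 6 without flox PBS replicate 3, 5 without cKO PBS replicate 3), 12 to 25 at day 11, 1 to 3 between genotypes (3 without cKO day 4 replicate 1, 2 without flox PBS replicate 3) and 3 to 10 at day 11 in cKO (3 without cKO PBS replicate 2, 4 without cKO PBS replicate 1 or cKO day 11 replicate 2). For day 11 on average voom called 90, edgeR without the low-count filter 39, on the compared groups alone 27, and without the 2 libraries of fewest genes and reads 37. Among other adhesion genes at day 11 on average the count was 2, and it became 4 without the filter or without cKO day 11 replicate 3 (Actn1 and Actn4 added) and 8 with DESeq2. At day 4 on average Flna was called without cKO day 4 replicate 3 (adjusted p = 0.038).

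Replicate numbers did not pair the libraries: libraries with the same number in different groups had a median correlation of deviations of -0.001, and 3 of 21 correlated best with their own number. With the replicate block no member was called, Vcl at day 11 averaged over genotypes turned to -0.0743, the day 11 count over all genes was 10, and Flna had an adjusted p of 0.0886. Other directions turned as follows. Without the 2 libraries of fewest genes and reads, Itga1 was 0.0025 at day 4 and 0.005 between genotypes, and Tln1 was -0.0125 between genotypes. With voom Itga1 was 0.0392 at day 4, and with the proximal tubule covariate Itgb5 was -0.1531 at day 4 and Itgav -0.0908 at day 11. Leaving out single libraries gave ranges across 0 at day 4 for Itga1 (-0.2496 to 0.0043), Itgb3 (-2.3181 to 6.2505) and Itgb5 (-0.1396 to 0.211), at day 11 for Itgav (-0.1064 to 0.4148) and Vcl (-0.1194 to 0.1817), and between genotypes for Tln1 (-0.0505 to 0.2052), while Itga1 between genotypes ran from -0.1779 to -0.01. The causes were not tested. Itgb1 kept its direction in each alternative run, from 0.47 to 0.64 at day 4 and 0.48 to 0.61 at day 11 averaged over genotypes.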
